A study of Mus musculus with 6 samples.

Results

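The genes described here are those of fatty acid uptake and mitochondrial beta-oxidation in the mouse heart, compared between *Trdn-as* KO and WT hearts. They are 38 genes out of 21776 in the deposited table, found by gene symbol, and each of the 38 had a value above 0 in all 6 libraries and was tested. The data were 6 libraries of strand-specific total RNA from mouse (*Mus musculus*) heart tissue, 3 from KO and 3 from WT. *Trdn-as*, a non-coding transcript, runs opposite to *Trdn*, which encodes triadin, a protein of the calcium release complex. In the KO mice a polyadenylation site had been placed by Cas9 in the first exon of *Trdn-as* in embryonic stem cells, so that transcription stops early, and homozygous animals on a C57BL/6 background were used. The insertion is carried by every cell of the animal, although the RNA itself is made in cardiomyocytes. The controls are WT hearts without the insertion, no group received a treatment, the sex of the animals was not considered, and the series title calls the hearts adult without giving an age. The labels do not tie the 6 libraries to separate litters or days, so the p-values measure the spread between these hearts.

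Each value is a read count divided by the size factor of its library and rounded to a whole number, called the normalised read count below, and the values of a library summed to between 3.13 and 3.25 M. *Trdn-as*, listed as AC157017.2, had 1, 0 and 1 normalised reads in the KO hearts, here and below in the order of their replicate numbers, and 690, 773 and 688 in the WT hearts. *Trdn* was higher in KO, with 2489, 2381 and 2551 against 1541, 1541 and 1516 (log2 fold change 0.69, SE 0.05, limma adjusted p = 2.35e-07). The labelled genotypes and the labelled tissue were therefore both visible in the values, since 8 of 8 cardiomyocyte markers were abundant, with summed levels of 24494 to 31320 in every heart. One WT library, replicate 1, stood apart, with the highest value of the 6 libraries for 46.6% of all genes with a mean of 500 or more. Estimates from a fit without it are given beside many of the results.

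The adult heart draws most of its energy from long-chain fatty acids. Lipoprotein lipase frees them from circulating triglycerides, CD36 and transport proteins carry them into the cardiomyocyte, and acyl-CoA synthetases trap them as CoA esters. The carnitine shuttle, whose outer-membrane step is blocked by malonyl-CoA, moves the acyl groups into mitochondria. There, chain-length-specific dehydrogenases, hydratases and thiolases shorten them stepwise, and the electron transfer flavoprotein passes the electrons of the dehydrogenase step on to the respiratory chain. The genes are widely activated by nuclear receptors of the PPAR and estrogen-related receptor families, and fatty acid oxidation genes are known to fall in many forms of heart failure.

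The first question was whether this programme differed between KO and WT hearts. No gene of the 38 passed the test. Adjusted p-values started at 0.807, against a threshold of 0.05 that 0.0291% of all 13753 tested genes passed (4 genes, limma on log2(value + 1) with Benjamini-Hochberg adjustment over all tested genes). At an unadjusted p under 0.05 there were 5 of the 38 genes, beside 5.74% of all tested genes. *Lpl*, *Acadl* and *Acot13* were the 3 with lower values in KO, beside 2.8% of all genes, and *Acsl6* and *Lipe* the 2 with higher values, beside 2.94% of all genes. The fold changes were small. Their median was -0.08 on the log2 scale (0.00 over all tested genes), and they ran from -0.22 for *Acad10* to 0.43 for *Acsl6*. The typical 95% interval reached 0.15 log2 units to each side of the estimate, and differences of that size could not be resolved in most of these genes. The intervals are not adjusted for the number of genes tested, and larger differences also failed the adjusted test.

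**Figure D1:**
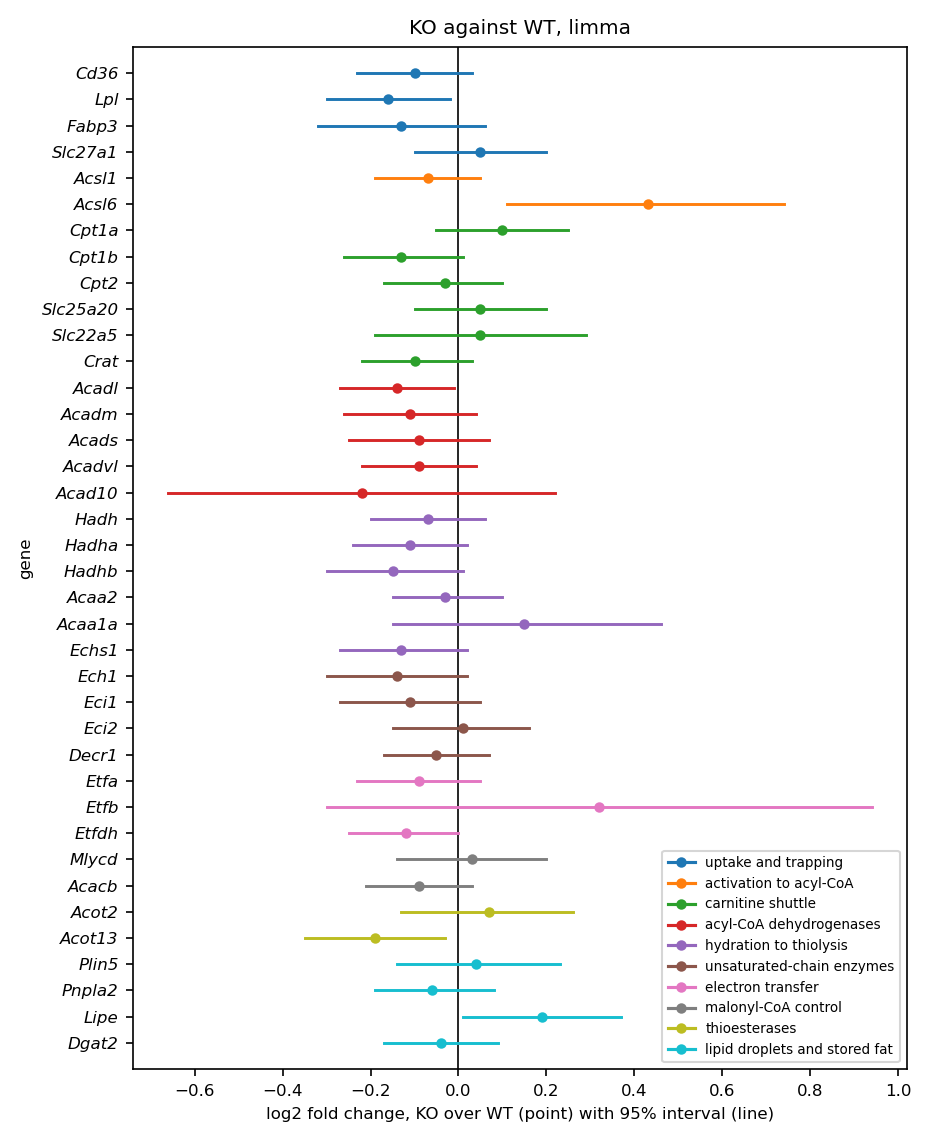
Log2 fold change of KO over WT (horizontal axis, points) with its 95% interval from limma (lines) for the 38 genes, in the order of their roles and coloured by role. Most points lie slightly left of 0, *Acsl6* at 0.43 lies farthest right, and the widest intervals belong to *Etfb*, *Acad10* and the other low genes.

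By direction alone, 26 of the 38 estimates were lower in KO and 12 higher, that is 68.4% lower beside 49.4% of all tested genes. In only 1 gene, *Crat*, did the 3 KO values all lie on one side of the 3 WT values, beside 9.07% of all tested genes. Direction and abundance were compared next. All 20 genes with a mean of 500 or more had lower estimates in KO, from -0.16 to -0.03 with a median of -0.09. Without WT replicate 1 this held for 18 of the 20, with a median of -0.03 and 63.4% of the class lower. Of all 1496 tested genes in that class, 70.7% were lower, with a median of -0.04. Among the other 18 genes 12 were higher and 6 lower, beside 53.3% higher of all tested genes with a mean under 500. With a correction for abundance, fitted as a loess of the deviations of each heart on mean level, 25 of the 38 and 19 of the 20 were lower (median of the 20 -0.05), beside 49.4% of the class. With a correction for read density, 18 of the 38 and 12 of the 20 were lower (median of the 20 -0.02), beside 53.2% of the class. The limit of 500 was chosen after the values had been seen.

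**Figure D2:**
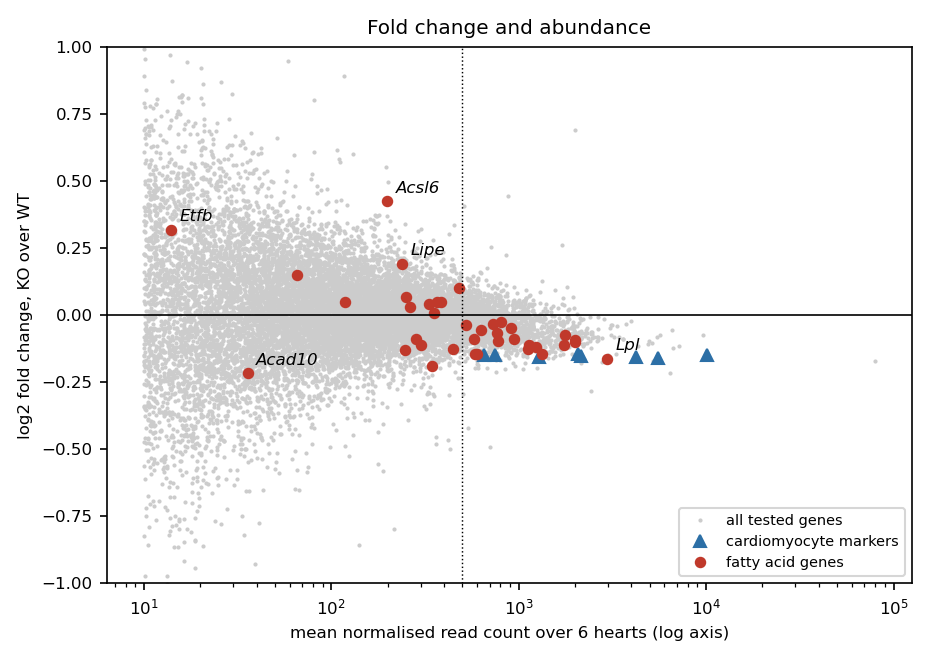
Log2 fold change of KO over WT against the mean normalised read count over the 6 hearts (log axis) for the 38 genes (red circles), 8 cardiomyocyte markers (blue triangles) and all tested genes (grey points, 15 of them outside the plotted range). Right of the dotted line at 500, the 20 red points all lie below 0, as does the centre of the grey cloud.

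The direction also went with WT replicate 1. This heart gave the highest value of the 6 in 23 of the 38 genes, and the median gene of the 38 lay 0.12 log2 units above its own mean over the 6 hearts there. Over all tested genes 20.8% were highest in this heart, with a median of 0.01, and the median of the genes with a mean of 500 or more was 0.06. For the 38 genes the median was 0.03 in WT replicate 2 and -0.05 in WT replicate 3, and it was -0.01, -0.06 and -0.04 in KO replicates 1 to 3. WT replicate 3 thus sat among the KO hearts. Without WT replicate 1, 24 of the 38 genes were lower in KO, their median was -0.02, and 0 had an unadjusted p under 0.05, beside 4.36% of all genes in that fit. Without WT replicate 3, 18 had one, beside 8.6% of all genes in that fit, and none passed the adjusted threshold.

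**Figure D3:**
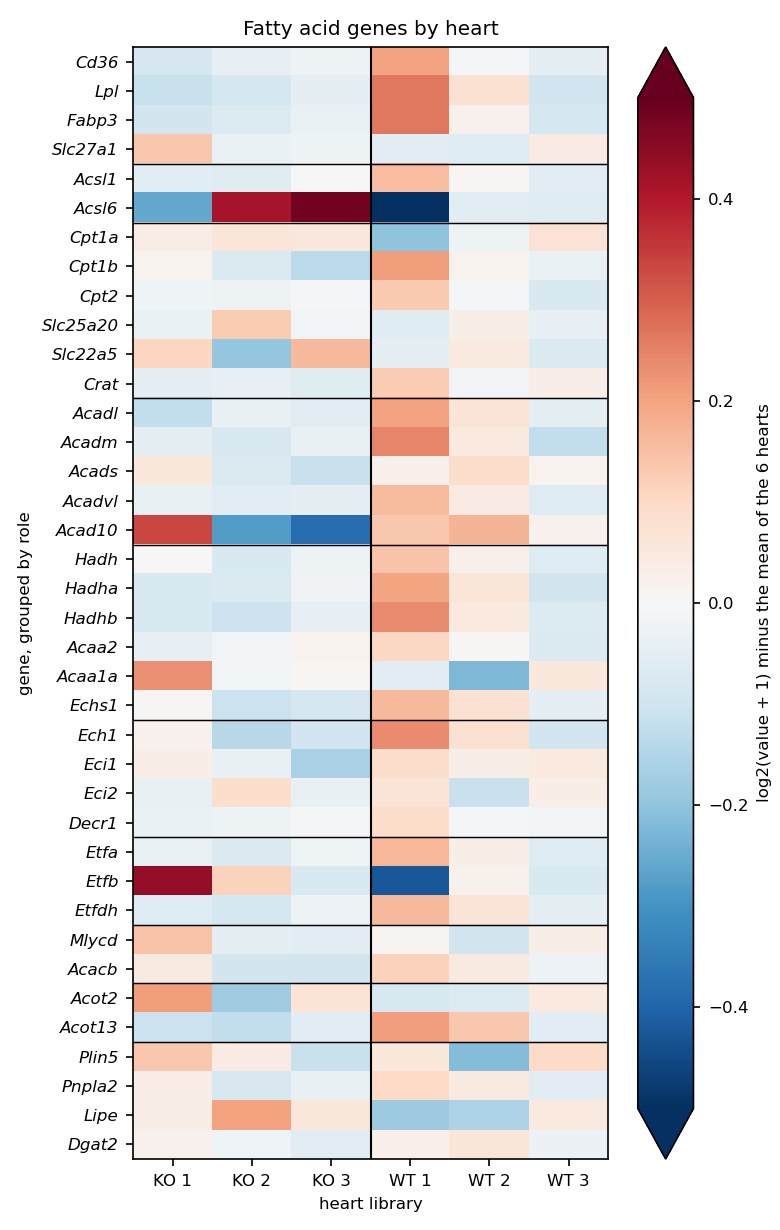
Deviation of each gene in each heart from its mean over the 6 hearts, on the log2(value + 1) scale (colour, red higher and blue lower, limited to 0.5 to each side), with genes in rows by role and hearts in columns. The column of WT replicate 1 is red for most genes, and *Acsl6* runs from blue to red within the KO hearts.

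Summed over the 38 genes, the normalised reads were 27225, 26832 and 27164 in KO (27074 ± 212, SD, n = 3) and 30865, 28364 and 26942 in WT (28724 ± 1986, SD, n = 3). The KO hearts were close together, WT replicate 3 lay among them and the other WT hearts above. The markers of cardiomyocytes, the cells that burn most of the fat in a heart, moved in the same way. Their sum was 24494, 25553 and 26082 in KO and 31320, 28116 and 25440 in WT, all 8 had lower estimates in KO (median log2 fold change -0.15), beside 70.7% of the genes with a mean of 500 or more, and 6 of them had an unadjusted p under 0.05, beside 5.61% of that class on that side. Without WT replicate 1 all 8 estimates were still lower, with a median of -0.06, and 1 had an unadjusted p under 0.05, beside 33 of the 1496 genes of the class on that side. Per 100 normalised reads of these markers the 38 genes held 111, 105 and 104 reads in KO and 98.5, 101 and 106 in WT (107 ± 3.82 against 102 ± 3.76, SD, n = 3), so on that scale KO was the slightly higher group. With the correction for read density the median log2 fold change of the 38 genes was 0.00. The parts of the markers and of read density in the lower values of the 38 genes were not tested. In whole hearts fewer cardiomyocytes and less RNA per cardiomyocyte cannot be told apart. Neither can be told from an effect of read density on the counts, from which duplicate reads had been removed.

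**Figure D4:**
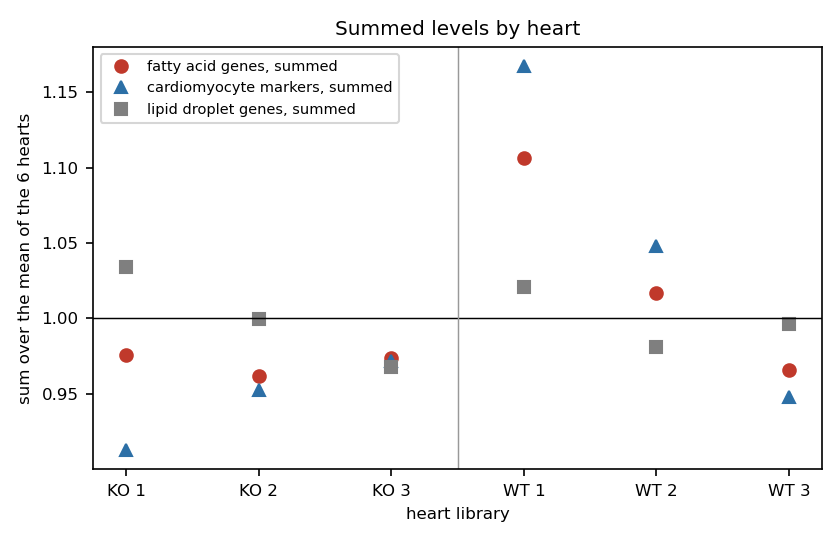
Summed normalised read counts in each heart, divided by the mean of the 6 hearts, for the 38 fatty acid genes (red circles), 8 cardiomyocyte markers (blue triangles) and the 4 lipid droplet genes among the 38 (grey squares). The axis does not start at 0. Circles and triangles are both high in WT replicate 1, at sums of 30865 and 31320 reads, and the squares stay within a narrow band.

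Fatty acid uptake was represented by 4 genes, whose summed level in KO was 0.914 times that in WT. *Lpl* (chromosome 8, 68880491 to 68906934, plus strand, GRCm38) encodes lipoprotein lipase and had the most reads of the 38 genes. It had 2731, 2776 and 2858 normalised reads in KO and 3537, 3105 and 2762 in WT. The 2 highest values were WT, but WT replicate 3 lay within the KO range. The log2 fold change was -0.16 (SE 0.07, unadjusted p = 0.0286, adjusted p = 0.851) and it was -0.07 without WT replicate 1. *Cd36* (chromosome 5, 17781690 to 17888747, minus strand), the fatty acid translocase of the sarcolemma, had 1883, 1940 and 1961 in KO and 2294, 1984 and 1934 in WT. WT replicate 1 stood clear of the other hearts, WT replicate 3 lay among the KO hearts, and the log2 fold change was -0.10 (SE 0.06, adjusted p = 0.89), or -0.02 without WT replicate 1. *Fabp3*, the heart fatty acid binding protein of the cytosol, had a log2 fold change of -0.13 (-0.03 without WT replicate 1), and *Slc27a1*, a fatty acid transport protein with acyl-CoA synthetase activity, one of 0.05. The level of *Fabp3* itself is uncertain, since reads mapping to more than 1 place were removed and the genome holds a processed copy, *Fabp3-ps1*, listed with values of 25 to 43.

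Activation to acyl-CoA was represented by *Acsl1* and *Acsl6*. *Acsl1* (chromosome 8, 46471037 to 46536051, plus strand), the main long-chain acyl-CoA synthetase of the heart, had 1701, 1693 and 1767 normalised reads in KO and 1965, 1774 and 1695 in WT. The groups overlapped, with a log2 fold change of -0.07 (SE 0.06, adjusted p = 0.916), or -0.01 without WT replicate 1. *Acsl6* (chromosome 11, 54303798 to 54364756, plus strand) is a related synthetase best known from brain, where it favours docosahexaenoic acid. It had 162, 258 and 271 in KO and 135, 186 and 185 in WT. KO replicates 2 and 3 were above every WT heart, whereas KO replicate 1 was below WT replicates 2 and 3. The log2 fold change was 0.43 (SE 0.15), with the smallest p of the 38 genes (unadjusted p = 0.0111, adjusted p = 0.807). Its estimate was positive under each of 17 alternatives, from 0.27 without WT replicate 1 to 0.66 without KO replicate 1. In the latter alone it passed the test, with an adjusted p of 0.0153. KO replicate 1 and WT replicate 1 were the low heart of their group. Per *Acsl1* read *Acsl6* had 0.0952, 0.152 and 0.153 reads in KO and 0.0687, 0.105 and 0.109 in WT (exact two-sided permutation p = 0.3). By this ratio too KO replicate 1 was below WT replicates 2 and 3.

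A promoter window of *Acsl6* is shown because this gene had the largest change and was the only one with an estrogen-related receptor element in a window. RefSeq promoter windows (GRCm38.p6, 250 bases before to 50 after a start site) were found for 31 of the 38 genes, in 38 windows. The element searched was TCAAGGTCA on either strand. It was in 1 of the 38 windows, beside 0.423% of all 32851 mouse windows and 0.258% of those of tested genes. *Acsl6* had windows at several start sites, and only the window at start site 54303824 held the element. Which start site these hearts use was not tested. The stretch printed ends before the first exon, at chr11:54303574-54303797 on the plus strand. Capitals mark the element on the reverse strand as TGACCTTGA, a CCAAT box, and a GC box (GGGCGG) on the reverse strand.
Acsl6: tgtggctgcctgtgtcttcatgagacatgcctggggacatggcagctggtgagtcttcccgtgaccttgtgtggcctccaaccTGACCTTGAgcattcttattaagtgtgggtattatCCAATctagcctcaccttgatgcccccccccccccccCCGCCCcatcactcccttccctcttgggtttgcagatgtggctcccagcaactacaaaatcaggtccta

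A direct repeat of AGGTCA with 1 base between, the spacing that PPAR and RXR pairs prefer, was in 0 of the 38 windows and in 0.0396% of all windows when spelled without mismatches. The GC box was common: 27 of the 38 windows held it (71.1%), beside 35.7% of all windows and 61.5% of the windows of tested genes. A CCAAT box was in 44.7% of the windows and 37.4% of all windows (37.1% for tested genes). TATAAA, the core of a TATA box, was in 1 window, that of *Acacb*, and in 13.6% of all windows and 7.38% of those of tested genes. A match says only that these letters are present. An absent match says only that the exact letters are not in this window.

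The carnitine shuttle had 6 genes, 3 lower and 3 higher in KO, and a summed level of 0.967 times that in WT. *Cpt1b* (chromosome 15, 89416405 to 89425863, minus strand), the muscle form of the malonyl-CoA-sensitive transferase that starts the shuttle, had 1132, 1066 and 1020 in KO and 1293, 1133 and 1093 in WT. WT replicate 3 lay within the KO range and WT replicate 2 just above it, with a log2 fold change of -0.13 (SE 0.07, unadjusted p = 0.0694, adjusted p = 0.851), or -0.05 without WT replicate 1. Its level is uncertain: in GENCODE M21 the gene model *Gm44502* covers 81.4% of its exonic bases on the same strand, and reads shared between genes were not counted wherever the annotation used by the authors held both. *Cpt1a*, the liver form that the heart also makes, went the other way, with 493, 502 and 500 in KO and 418, 473 and 505 in WT (log2 fold change 0.10, SE 0.07, adjusted p = 0.903, or 0.03 without WT replicate 1). The KO hearts were almost equal and the WT hearts spread around them. *Cpt1b* per *Cpt1a* was 2.3, 2.12 and 2.04 in KO and 3.09, 2.4 and 2.16 in WT. The ratio of WT replicate 3 fell within the KO range, and an exact two-sided permutation test gave p = 0.2, where 0.1 is the smallest value that 3 against 3 hearts allow.

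*Crat* (chromosome 2, 30400471 to 30415813, minus strand) encodes carnitine acetyltransferase, which buffers acetyl-CoA by forming acetylcarnitine. It had 751, 753 and 743 in KO and 846, 767 and 793 in WT. Every KO heart was below every WT heart, by a narrow margin, with 753 the highest KO and 767 the lowest WT value. The log2 fold change was -0.10 (SE 0.06, unadjusted p = 0.117, adjusted p = 0.879), and it was -0.06 without WT replicate 1. The remaining genes of the shuttle are *Cpt2*, which rebuilds acyl-CoA inside the mitochondrion, *Slc25a20*, the carnitine-acylcarnitine carrier, and *Slc22a5*, the plasma membrane carnitine transporter. They had log2 fold changes of -0.03, 0.05 and 0.05, with every adjusted p at 0.961 or above, and *Cpt2* was at 0.02 without WT replicate 1. Their 95% intervals of -0.17 to 0.10, -0.10 to 0.20 and -0.19 to 0.29 all held 0.

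All 5 acyl-CoA dehydrogenase estimates, for the enzymes of the first oxidation step, were lower in KO, with a summed level of 0.92 times that in WT. The sums themselves were 3574, 3575 and 3591 in KO and 4250, 3875 and 3553 in WT. *Acadl* (chromosome 1, 66830839 to 66863277, minus strand), the long-chain dehydrogenase, had 1221, 1296 and 1283 in KO and 1529, 1392 and 1286 in WT. Again WT replicate 3 fell among the KO hearts, and the log2 fold change was -0.14 (SE 0.06, unadjusted p = 0.0331, adjusted p = 0.851). It was -0.08 without WT replicate 1. *Acadm*, *Acads* and *Acadvl*, for medium, short and very long chains, had log2 fold changes of -0.11, -0.09 and -0.09, with adjusted p from 0.892 to 0.921. Without WT replicate 1 these were -0.02, -0.10 and -0.03. *Acad10*, a less studied member, was low, with 45, 29 and 27 reads in KO and 39, 40 and 36 in WT. The KO hearts lay on both sides of the WT hearts, and its 95% interval of -0.66 to 0.22 was the widest but for *Etfb*.

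*Acadl* had the highest level of the 38 genes per kilobase of exon. The 250 bases before its RefSeq start site are shown as an example of a window with several GC boxes, at chr1:66863310-66863559 (GRCm38.p6), read on the minus strand. Capitals mark 4 GC boxes, each on the opposite strand of the run.
Acadl: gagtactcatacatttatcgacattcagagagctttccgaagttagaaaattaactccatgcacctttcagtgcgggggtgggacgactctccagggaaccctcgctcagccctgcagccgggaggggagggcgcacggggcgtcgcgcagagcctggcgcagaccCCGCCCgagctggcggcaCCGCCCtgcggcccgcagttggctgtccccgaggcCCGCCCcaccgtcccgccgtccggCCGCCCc

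The later steps of the spiral, hydration, the second oxidation and thiolysis, had 6 genes, 5 of them lower in KO, and a summed level of 0.938 times that in WT. *Acaa2*, the mitochondrial thiolase of medium and long chains, had the highest level per kilobase among them. It had 781, 796 and 815 in KO and 865, 809 and 764 in WT, so the KO hearts lay within the WT range. The log2 fold change was -0.03 (SE 0.06, adjusted p = 0.979), and it was 0.02 without WT replicate 1. *Hadha* and *Hadhb* encode the alpha and beta subunits of the mitochondrial trifunctional protein, which carries out these steps on long chains. *Hadha* had 1651, 1658 and 1720 in KO and 1996, 1815 and 1633 in WT (log2 fold change -0.11, SE 0.06, adjusted p = 0.879). *Hadhb* had 554, 543 and 567 in KO and 688, 604 and 556 in WT (log2 fold change -0.15, SE 0.07, adjusted p = 0.851). The same 2 WT hearts were highest in both genes, and without WT replicate 1 the estimates were -0.04 for *Hadha* and -0.06 for *Hadhb*. *Hadhb* per *Hadha* was 0.336, 0.328 and 0.33 in KO and 0.345, 0.333 and 0.34 in WT. The ratios of the 6 hearts thus lay between 0.328 and 0.345. An exact two-sided permutation test gave p = 0.2, which cannot show a constant ratio, since 0.1 is the smallest value possible. *Hadh*, for medium and short chains, *Echs1*, the short-chain hydratase, and *Acaa1a*, a peroxisomal thiolase, had log2 fold changes of -0.07, -0.13 and 0.15, with adjusted p of 0.924, 0.879 and 0.931. Without WT replicate 1 these were -0.01, -0.08 and 0.16.

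The 2 genes of the trifunctional protein lie head to head on chromosome 5, *Hadha* on the minus strand with its upstream end at 30155162 and *Hadhb* on the plus strand from 30155248. The interval between their annotated ends is shown because it lies upstream of both genes. It is wholly within the *Hadhb* window, and its first 68 bases are also in the *Hadha* window. It spans chr5:30155163-30155247 (GRCm38.p6) and is read on the plus strand, and the RefSeq start sites used are 273 bases apart. Capitals mark 2 GC boxes.
Hadhb: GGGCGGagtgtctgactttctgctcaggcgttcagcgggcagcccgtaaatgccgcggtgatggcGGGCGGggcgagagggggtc

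Unsaturated chains need isomerases and a reductase before they can enter the spiral, and 3 of these 4 genes had lower estimates in KO. *Ech1* (chromosome 7, 28825217 to 28832247, plus strand), which shifts conjugated double bonds, had 607, 543 and 559 in KO and 704, 630 and 560 in WT. KO replicate 1 and WT replicate 3 broke the order of the groups, and the log2 fold change was -0.14 (SE 0.08, unadjusted p = 0.076, adjusted p = 0.86), or -0.06 without WT replicate 1. *Eci1* and *Eci2*, the enoyl-CoA isomerases, had -0.11 and 0.01, and *Decr1*, the dienoyl-CoA reductase, had -0.05 (-0.01 without WT replicate 1). None of these came under an adjusted p of 0.86.

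Electrons of the dehydrogenases leave through the electron transfer flavoprotein, encoded by *Etfa* and *Etfb*, and its oxidoreductase *Etfdh*. *Etfdh* (chromosome 3, 79603788 to 79628863, minus strand) had 1182, 1163 and 1217 in KO and 1386, 1293 and 1199 in WT. WT replicate 3 was again the only WT heart among the KO values, and the log2 fold change was -0.12 (SE 0.06, unadjusted p = 0.0582, adjusted p = 0.851), or -0.07 without WT replicate 1. *Etfdh* was the gene nearest the unadjusted limit of 0.05 on its far side. *Etfa* (chromosome 9, 55454508 to 55512243, minus strand) had 565, 550 and 570 in KO and 649, 591 and 554 in WT, with a log2 fold change of -0.09 (SE 0.07, adjusted p = 0.907), or -0.03 without WT replicate 1. *Etfa* per *Etfdh* was 0.478, 0.473 and 0.468 in KO and 0.468, 0.457 and 0.462 in WT. Every KO ratio was above every WT ratio, though the closest pair differed only beyond the digits given, and the exact two-sided permutation p was 0.1, the smallest possible, or 0.3 adjusted over the 6 ratios computed. *Etfb* had 19, 15 and 13 reads in KO and 10, 14 and 13 in WT, far below its partner subunit. In GENCODE M21, *Gm45233* and *Mir7051* cover 58.2% of its exonic bases on the same strand, so its reads may have been left uncounted and its level says little.

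Malonyl-CoA, the brake on the shuttle, is made by the carboxylase *Acacb* and removed by the decarboxylase *Mlycd*. *Acacb* (chromosome 5, 114146535 to 114250761, plus strand) had 2054, 1871 and 1867 in KO and 2158, 2057 and 1958 in WT. KO replicate 1 lay among the WT hearts, and the log2 fold change was -0.09 (SE 0.06, adjusted p = 0.89), or -0.06 without WT replicate 1. *Mlycd* had 292, 256 and 255 in KO and 267, 248 and 270 in WT, with a log2 fold change of 0.03 (SE 0.08, adjusted p = 0.982). *Acacb* reads per *Mlycd* read came to 7.22 ± 0.162 in KO against 7.88 ± 0.551 in WT (SD, n = 3, exact two-sided permutation p = 0.3), and WT replicate 3 at 7.25 fell within the KO range of 7.03 to 7.32.

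The thioesterases release CoA from acyl-CoA. *Acot13* (chromosome 13, 24817948 to 24831517, minus strand), a thioesterase of long acyl chains, had 321, 317 and 333 in KO and 399, 379 and 332 in WT. WT replicate 3 was below the highest KO heart, and the log2 fold change was -0.19 (SE 0.08, unadjusted p = 0.0251, adjusted p = 0.851), or -0.13 without WT replicate 1. *Acot2*, the mitochondrial long-chain form, had 288, 220 and 261 in KO and 235, 237 and 257 in WT (log2 fold change 0.07, SE 0.09, adjusted p = 0.959). Its KO values lay on both sides of the WT values. *Acot2* belongs to a cluster of near-identical paralogs on chromosome 12, so reads may have been lost to multiple mapping.

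Genes of the lipid droplet, where triglyceride is stored and broken down again, had nearly the same summed level in both groups, with 1730 ± 57 reads for KO against 1728 ± 34.3 for WT (SD, n = 3). *Lipe* (chromosome 7, 25379527 to 25398710, minus strand), the hormone-sensitive lipase that cleaves diglycerides, had 244, 274 and 248 in KO and 210, 214 and 247 in WT. WT replicate 3 lay just within the KO range, and the log2 fold change was 0.19 (SE 0.09, unadjusted p = 0.04, adjusted p = 0.851), or 0.15 without WT replicate 1. It was the gene nearest the unadjusted limit on its near side, and its estimate ranged from 0.14 to 0.34 under 17 alternatives. *Pnpla2* (chromosome 7, 141455198 to 141460743, plus strand), the adipose triglyceride lipase that acts before it, had 648, 598 and 616 in KO and 677, 652 and 608 in WT. These overlapped, with a log2 fold change of -0.06 (SE 0.06, adjusted p = 0.947), or -0.02 without WT replicate 1. *Lipe* per *Pnpla2* was 0.377, 0.458 and 0.403 in KO and 0.31, 0.328 and 0.406 in WT (exact two-sided permutation p = 0.3). *Plin5*, which ties droplets to mitochondria, and *Dgat2*, which makes triglyceride, had log2 fold changes of 0.04 and -0.04, with adjusted p of 0.975 and 0.97.

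Adipocytes also express *Lipe*, and a whole heart can carry some epicardial fat. White adipocyte markers were low except in KO replicate 2, the heart with the highest *Lipe* value. *Adipoq* had 2, 13 and 5 reads in KO and 4, 3 and 2 in WT, and the sum over 6 markers ran from 34 to 157 in KO and from 50 to 51 in WT. *Ucp1*, which defines brown fat, was at 0 in 5 hearts and at 3 in KO replicate 2. The part of these cells in the *Lipe* difference was not tested. Of the endothelial, fibroblast, blood and atrial markers, 0 had an unadjusted p under 0.05, and their sums overlapped between groups.

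Within the group of genes, levels per kilobase of exon spread over a wide range. Averaged over the 6 hearts, *Acadl* was first with 666 normalised reads per kilobase, followed by *Cd36* with 557, *Acaa2* with 531, *Acot13* with 466 and *Acadvl* with 353. *Acadl* was above *Cd36* in each of the 6 hearts. The levels were 632 ± 20 against 537 ± 11.2 in KO (SD, n = 3). In WT they were 699 ± 60.8 against 577 ± 54.3 (SD, n = 3), with wider spreads. *Cd36* and *Acaa2* were close, at 537 ± 11.2 and 526 ± 11.2 in KO (SD, n = 3), although *Cd36* was the higher within each of the 6 hearts. *Lpl*, first by reads, was eleventh per kilobase at 283. *Cpt1b* at 333 stood well above *Cpt1a* at 63.1, *Acsl1* at 168 above *Acsl6* at 20.1, and *Pnpla2* at 210 above *Lipe* at 40.7. These 3 orders held in all 6 hearts. *Acad10* at 5.93 was last. The places of *Cpt1b*, *Fabp3* and *Etfb* in this order are uncertain for the reasons given above. The other places have limits too. Duplicate reads had been removed, and the effect of read density on the order was not tested. The order also rests on annotated exon lengths, such as 2005 bases for *Acadl*, 8730 for *Hadha* and 10478 for *Lpl*. Which transcripts of these genes the hearts use was not tested.

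**Figure D5:**
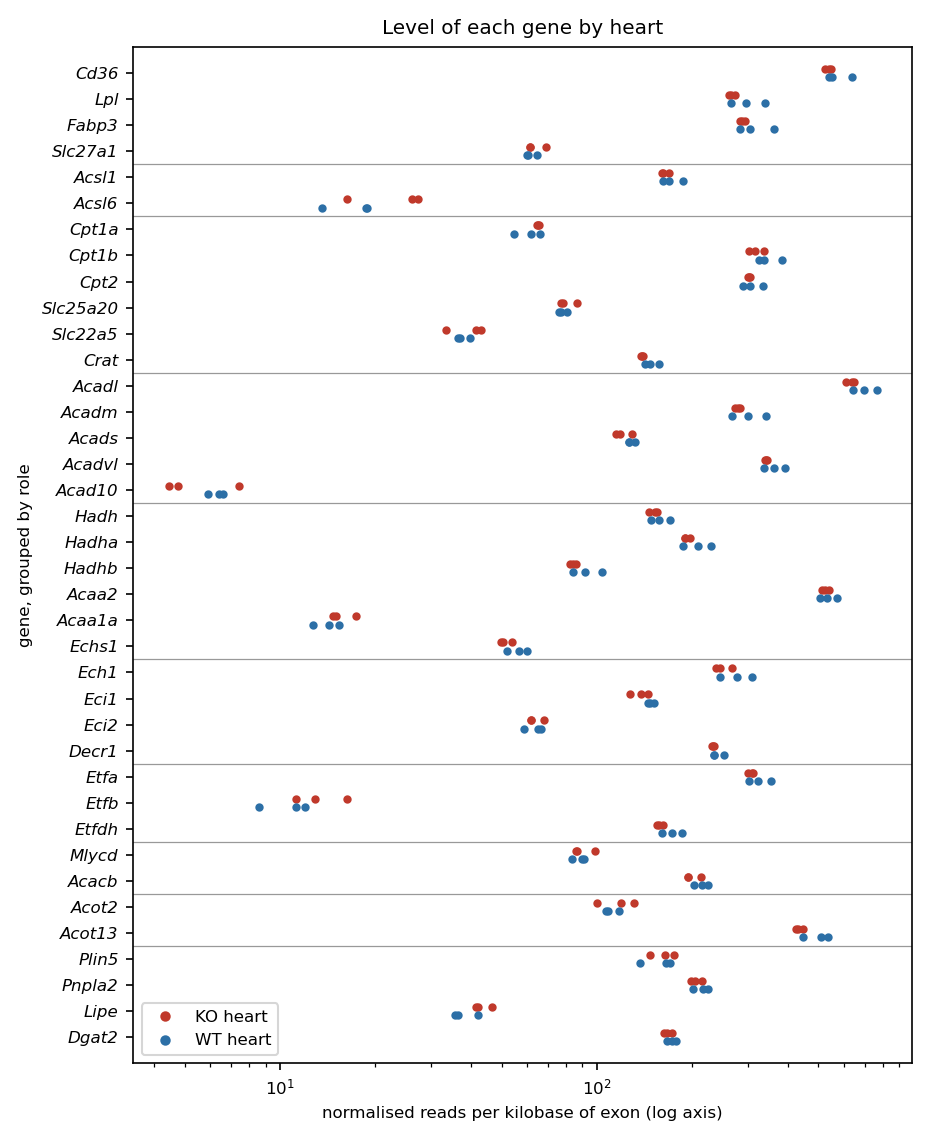
Normalised reads per kilobase of exon (log axis) of the 38 genes in each KO heart (red) and WT heart (blue), in rows by role. The genes differ among themselves by far more than the groups do, from about 666 for *Acadl* to 5.93 for *Acad10*, and red and blue points overlap in every row but that of *Crat*.

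Beyond the 38 genes, 72 genes of neighbouring steps were listed, of which 71 were found and 69 tested (*Slc27a6* and *Hilpda* were under the filter). None passed the test, 7 had an unadjusted p under 0.05 (1 lower and 6 higher in KO, where 2.8% and 2.94% of all genes did), and the median log2 fold change was -0.01, with 39 lower and 30 higher. In the list of uptake, activation and transport 1 of 13 had an unadjusted p under 0.05, in that of mitochondrial and peroxisomal oxidation 1 of 24, in that of storage and thioesterases 4 of 20, and among 12 regulators 1, beside 5.74% of all genes. The groups did not overlap in 5 of the 69, beside 9.07% of all genes, and 3 of these 5, *Ppargc1a*, *Acad11* and *Pecr*, were lower in KO. Without WT replicate 1, 2 of the 69 had an unadjusted p under 0.05, beside 4.36% of all genes in that fit.

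*Pdk4*, the kinase that shuts off pyruvate oxidation when fat is used, had 1682, 1885 and 1998 in KO and 1337, 1574 and 1742 in WT (log2 fold change 0.26, SE 0.08, adjusted p = 0.744). KO replicate 1 lay below WT replicate 3, and the estimate was 0.16 without WT replicate 1. *Ucp3*, a mitochondrial carrier of muscle, had 534, 610 and 577 in KO and 304, 458 and 576 in WT (log2 fold change 0.41, SE 0.14, adjusted p = 0.772). Its WT hearts differed among themselves by more than the KO hearts did, and the estimate was 0.16 without WT replicate 1. *Angptl4*, a secreted inhibitor of lipoprotein lipase, had 64, 122 and 114 in KO and 28, 58 and 100 in WT (log2 fold change 0.80, SE 0.30, adjusted p = 0.807, or 0.33 without WT replicate 1). *Pdk4*, *Ucp3*, *Angptl4* and *Acsl6* had in common that KO replicate 1 was the lowest KO heart and WT replicate 1 the lowest WT heart. This likeness was seen only after the values were known, and its share over all tested genes was not counted. *Ehhadh*, a bifunctional enzyme of peroxisomal oxidation, had 135, 138 and 135 in KO and 91, 110 and 122 in WT, with every KO heart above every WT heart (log2 fold change 0.34, SE 0.12, adjusted p = 0.772, or 0.23 with an unadjusted p of 0.0583 without WT replicate 1). *G0s2*, the inhibitor of *Pnpla2*'s lipase, had 106, 110 and 114 in KO and 89, 105 and 80 in WT, also with no overlap (log2 fold change 0.27, SE 0.12, adjusted p = 0.851). The 1 gene of the 7 with lower values was *Ppargc1a*, a coactivator of these pathways, with 1329, 1256 and 1208 in KO and 1401, 1365 and 1349 in WT (log2 fold change -0.12, SE 0.06, adjusted p = 0.851). Every KO heart was below every WT heart, and without WT replicate 1 the estimates were -0.10 for *Ppargc1a* and 0.26 for *G0s2*, with unadjusted p of 0.0914 and 0.0807.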

How the data were processed

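The authors made stranded total RNA libraries from hearts. By the methods and the submitters' processing notes, the authors trimmed reads with Trimmomatic 0.39, aligned them to GRCm38 with STAR 2.6.1d, removed duplicates (Picard 2.21.1) and multi-mapping, ribosomal and mitochondrial reads, counted strand-matched exonic reads with featureCounts 1.6.5 and normalised with DESeq2 1.18.1. The deposited values are a score, the counts divided by a size factor and rounded to whole numbers, so no count test was used for the main fit. On these values limma-voom was run only as an alternative.

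Genes with a mean of at least 10 were tested on log2(value + 1), which understates the changes of low genes. limma 3.58.1 in R 4.3.3 (eBayes with trend, residual df 4, prior df 15.4) set KO against WT (n = 3 each), two-sided, with Benjamini-Hochberg adjustment over 13753 genes and a threshold of 0.05. The fit was also run on simulated data, but no outcome of that run is given here. Exon lengths came from GENCODE M21, with the table's own coordinates for 75.2% of genes.

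The genes, lists and tests were chosen with earlier results of these data known. Values per heart are given for the gene of each role with the highest level per kilobase, genes with an unadjusted p under 0.05 or no overlap, the gene nearest each side of that limit, and those of the 6 related genes with the smallest p that can be given (1 is not reported here). *Cpt1a*, *Hadha*, *Hadhb*, *Mlycd*, *Acot2*, *Acad10*, *Etfb* and *Ppargc1a* were added after their values were seen. So were the names of *Acad11* and *Pecr*, which are given without values per heart. Alternatives were other scalings, filters, a pseudocount of 0.1, limma-voom, no trend, abundance and read density corrections, a replicate block, a threshold of 0.01 and leaving out each heart, with scaling by cardiomyocyte markers added after seeing the data.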

Additional observations from a re-analysis of the deposited data

How the results depend on the processing

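No member of the 38 genes passed an adjusted p of 0.05 under any alternative but 1: without KO replicate 1 the count was 1, *Acsl6* at a log2 fold change of 0.66 (range of the count when leaving out hearts 0 to 1, also 0 to 1 for the related genes). Over all genes the count of 4 became 2 with at least 10 in every sample, 1 without the mean-variance trend, 2 at a threshold of 0.01 and 2 to 32 when leaving out hearts. The 5 members at an unadjusted p under 0.05 became 0 without the trend (5.67% of all genes), 3 under the abundance correction (5.53%), 2 under the read density correction (5.62%), 3 under cardiomyocyte marker scaling (9.03%), 0 at a threshold of 0.01 (1.22%) and 0 to 18 when leaving out hearts, 0 without WT replicate 1 (4.36%), 1 without KO replicate 2 (4.66%) or WT replicate 2 (4.73%), 2 without KO replicate 3 (3.69%) and 18 without WT replicate 3 (8.6%). The 7 related genes became 4 without the trend, 4 at a threshold of 0.01 and 2 to 10 when leaving out hearts, with 2 without WT replicate 1 and 4 without KO replicate 2 or 3.

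Under the read density correction, which takes out whatever genes of like read density have in common, the median was 0.00, 18 genes were lower, and *Cd36* was at 0.02, *Acaa2* at 0.09, *Etfa* at 0.00 and *Pnpla2* at 0.01, each no longer below 0. Scaling by the cardiomyocyte markers moved the median of all genes by 0.15, so most signs on that scale follow from the scaling itself, and only 13.2% of all genes and 3.34% of those with a mean of 500 or more were lower. On that scale 3 of the 38 genes were lower, their median was 0.07, and *Cd36* was at 0.05, *Acsl1* at 0.08, *Cpt1b* at 0.02, *Crat* at 0.05, *Acadl* at 0.01, *Acaa2* at 0.13, *Ech1* at 0.01, *Etfa* at 0.06, *Etfdh* at 0.03, *Acacb* at 0.06 and *Pnpla2* at 0.09. *Acaa2* was at 0.01 under the abundance correction and at 0.02 without WT replicate 1. Of the 20 abundant genes, 19 were lower under the abundance correction (49.4% of all genes of that class), 12 under the density correction (53.2%), 1 under marker scaling (3.34%) and 18 without WT replicate 1 (63.4%). The cause was not tested. Total scaling and limma-voom moved the share of all genes lower in KO from 49.4% to 41.8% and 41.5%, with 26 of the 38 lower in both.

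The replicate numbers are shared between groups, but same-numbered hearts did not deviate together (correlations 0.05, -0.07 and -0.03). With a replicate block 7 members had an unadjusted p under 0.05 (5.82% of all genes), the smallest adjusted p was 0.261 and 4 genes passed over all genes. With 3 hearts a group, differences under about 0.15 log2 units in a typical gene cannot be told from the spread.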
